A study of Bos taurus with 8 samples.

Results

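The genes described here are 40 genes of mitosis and the spindle, among them the cyclins and the kinase that start mitosis, the kinases and motors that build the spindle, the spindle checkpoint, the kinetochore, and the enzymes that separate sister chromatids. Members were found through the RefSeq accession that the array design gives for each probe. A probe so named was present for 37 of the 40 genes, out of 12603 genes with a named probe. CENPA, CENPE and TOP2A had none and are not analysed here. All 37 measured members were well above background on all 8 arrays by the flag of the scanner software, and all 37 were among the 10958 genes tested.

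Bovine embryo-derived stem-like cells (eSLCs) of HanWoo cattle were compared with bovine somatic cells (SCs) of the same breed. The eSLCs grew from blastocysts without a zona pellucida on an inactivated murine STO feeder layer, in 3i medium with the inhibitors PD184352, SU5402 and CHIR99021. In vitro produced embryos gave the IVP-eSLCs, I2 (passage 35) and I9 (passage 30). Somatic cell nuclear transfer gave the NT-eSLCs, N2 (passage 36) and N7 (passage 30). Parthenogenetic embryos gave the PA-eSLCs, P1 (passage 31) and P4 (passage 36). SCs were cultured in DMEM with serum and taken at passages 5 and 10, called SC P5 and SC P10. Each sample was 1 array, so that precision is limited by the 2 arrays of each condition. The 2 SC arrays are passages of cells that the labels give no tissue for, and nothing says that they were separate cultures, so that p values measure the spread between these samples. Signals are background-subtracted intensities divided by the 75th percentile of the array, which is set to 1000. A signal of 1 gene can be compared between arrays, and not with that of another gene.

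Fibroblast markers marked the SCs and trophectoderm markers the eSLCs. The summed signal of 13 fibroblast markers was 6714 to 11583 in the eSLC lines and 858285 to 1068982 in the SCs, and 12 of the 13 fell in eSLCs, S100A4 and LUM the most. FBN1 was not well above background in any eSLC line. The summed signal of 11 trophectoderm markers was 529014 to 1479972 in the eSLC lines and 19534 to 20280 in the SCs, and 10 of the 11 rose, PAG2 and KRT18 the most. Such sums are weighted by the brightest genes, here KRT8 and KRT18 in the eSLC lines and TFAP2A in the SCs. TFAP2A was the marker not called, with signals of 9021 in SC P5 and 9773 in SC P10. CDX2 and PAG2 were not well above background in either SC array. Among early lineage markers LIN28A rose and SOX2 fell, 2 of the 6 tested. These markers thus moved with the comparison of eSLCs and SCs, and their part in the differences below was not tested. With bulk RNA, more dividing cells and more RNA per dividing cell cannot be told apart.

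Mitosis begins when cyclin A and cyclin B activate CDK1, a step that CDC25 phosphatases promote and WEE1 opposes. Aurora and Polo-like kinases and kinesin motors then build a bipolar spindle, and kinetochores tie each chromosome to it. Until all are attached, the checkpoint proteins of the MAD and BUB families hold back the anaphase-promoting complex (APC/C), the ubiquitin ligase that destroys cyclin B and securin and so frees separase to cut cohesin. Most of these transcripts peak in G2 and mitosis, and are low in cells that do not divide.

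The mitotic genes called between eSLCs and SCs were higher in eSLCs with 1 exception. Of the 37 members, 15 rose at least 2-fold at an adjusted p under 0.05, against 19.7% of all genes tested, and CDC25B alone fell, against 15.7%. The mean was higher in eSLCs for 35 members, with CDC25B and KIF20A as the exceptions, and for 59.8% of all genes. The median difference over the members was 0.85 on the log2 scale, beside 0.23 over all genes tested. All 6 lines lay above both SC arrays in 25 members, against 33.9% of all genes. Of the 21 members not called, 6 passed the adjusted p at a difference under 2-fold (AURKB, BIRC5, KIF23, KIF2C, KIF4A and NUSAP1) and 15 did not pass it. Without SC P5 none of these 6 passed (adjusted p from 0.11 to 0.29), and without SC P10 AURKB, KIF2C, KIF4A and NUSAP1 were called. All differences are limma estimates of the mean of the 3 eSLC origins minus the SC mean, with p values adjusted over the 10958 genes by Benjamini-Hochberg.

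The size of the differences rests in part on SC P5, in which the members were lower than in SC P10. Without SC P5 the median difference over the members was 0.50, beside 0.21 over all genes tested. Without SC P10 the medians were 1.29 and 0.21. Both fits assume that the remaining SC array varies like the other samples. Fewer members were called without SC P5, and also with the 2 SC arrays averaged into 1 sample, which left the differences unchanged. These fits hold fewer samples, so a lost call need not be a smaller difference. The share of all genes called in them is not given here.

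**Figure D1:**
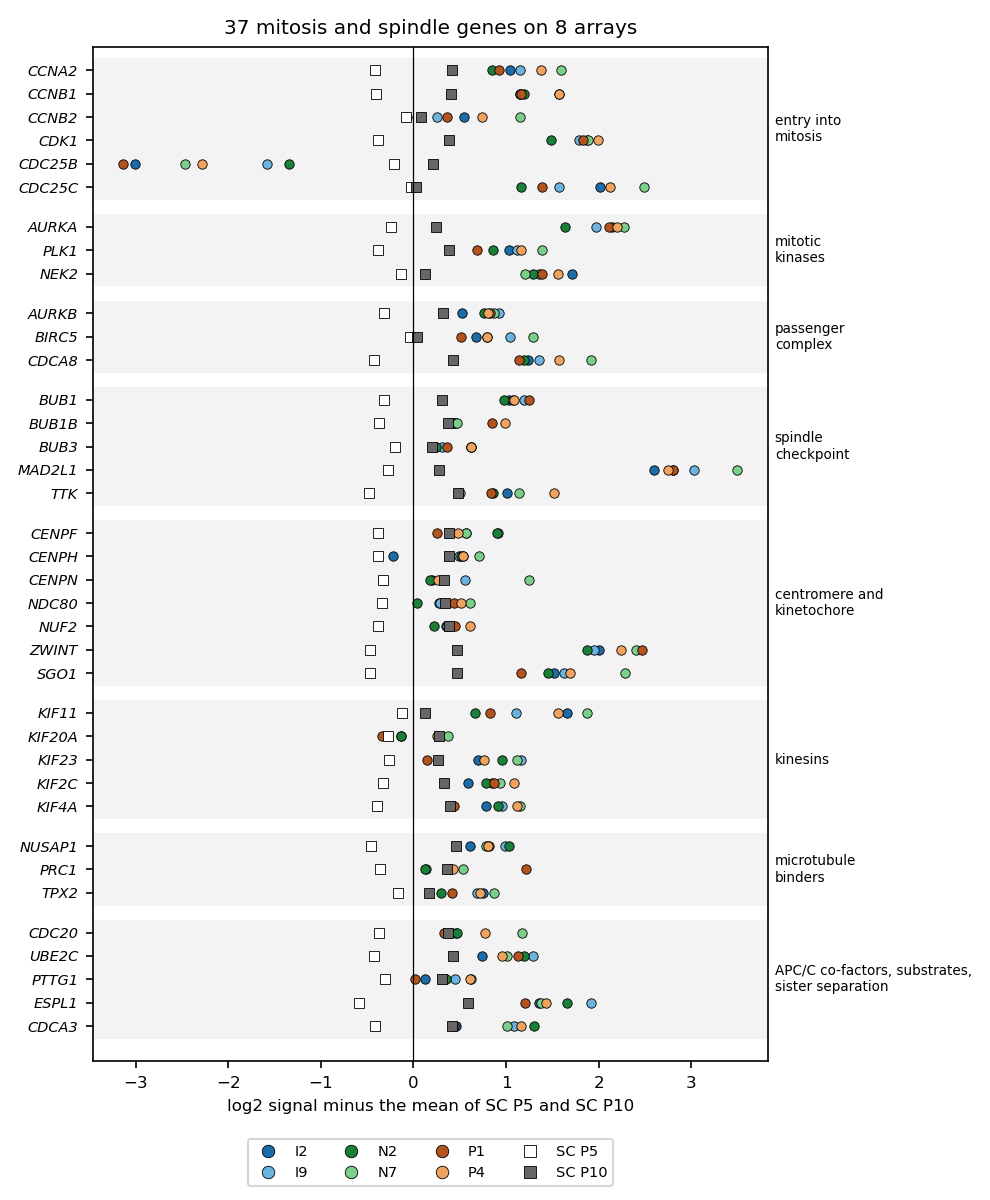
Log2 signal of each of the 37 measured genes on each array, less the mean of the 2 SC arrays, with circles for the 6 eSLC lines and squares for the SCs, in groups by role. MAD2L1 lay furthest to the right, CDC25B was the only gene with all 6 lines left of both SC arrays, and SC P10 (grey square) lay to the right of SC P5 (white square) for all 37 genes.

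Of the genes of entry into mitosis, 4 of 6 rose and 1 fell. CDK1, the kinase that drives entry into mitosis (NM_174016), had signals of 4639.8 in I2, 4359 in I9, 3550.4 in N2, 4658 in N7, 4490.4 in P1, 5039 in P4, 967 in SC P5 and 1653 in SC P10. All 6 lines lay above both SC arrays, and the difference was 1.81 ± 0.25 (SE, adjusted p = 0.0022), or 3.50-fold. CCNB1, which encodes cyclin B1, the partner of CDK1 (NM_001045872), gave 6446 in I2, 6435 in I9, 6641 in N2, 8608 in N7, 6487 in P1, 8650.1 in P4, 2191 in SC P5 and 3836 in SC P10. Its lines were close to each other and again above both SC arrays, and it rose by 1.30 ± 0.27 (SE, adjusted p = 0.010). Without SC P5 the difference of CCNB1 was 0.90, with an adjusted p of 0.067. CCNA2, cyclin A2, rose by 1.16 ± 0.31 (SE, adjusted p = 0.027), with signals of 2650.3 to 4439 in the eSLC lines, 1103 in SC P5 and 1955 in SC P10, and by 0.74 without SC P5 (adjusted p = 0.20). For CCNB2, the second B-type cyclin, the signal was 1395 to 3261 in the eSLC lines, 1379 in SC P5 and 1552 in SC P10, and the difference of 0.50 did not pass (adjusted p = 0.27).

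The CDC25 phosphatases, which remove the inhibitory phosphates from CDK1, moved in opposite directions. The CDC25C signal (NM_001097996) was 1850.1 in I2, 1360.4 in I9, 1023 in N2, 2562 in N7, 1196 in P1, 1993 in P4, 446 in SC P5 and 466 in SC P10. Every line lay above the SCs, in which the pair of arrays was nearly equal, and the difference was 1.80 ± 0.40 (SE, adjusted p = 0.013). Its lines spread over 2.50-fold, with N2 lowest and N7 highest. The difference of CDC25C was 1.77 without SC P5 (adjusted p = 0.11), 1.83 without SC P10 (adjusted p = 0.10) and 1.80 with the SCs as 1 sample (adjusted p = 0.11). CDC25B (NM_001191415) gave 1276 in I2, 3434 in I9, 4040.4 in N2, 1862 in N7, 1172 in P1, 2108 in P4, 8861 in SC P5 and 11908 in SC P10. All 6 lines lay below both SC arrays, and the gene fell, with a difference of -2.30 ± 0.50 (SE, adjusted p = 0.012) and a signal 4.93-fold lower. Its 4 probes gave differences between -2.30 and -1.94. The lines of CDC25B spread more than those of any other member, over 3.45-fold, with I2 and P1 at the bottom and I9 and N2 at the top. The difference of CDC25B was -2.52 without SC P5 (adjusted p = 0.089), -2.09 without SC P10 (adjusted p = 0.12) and -2.30 with the SCs as 1 sample (adjusted p = 0.10), so that for both genes the size remained and the call did not. CDC25A, which is no member, rose by 1.92 ± 0.38 (SE, adjusted p = 0.0091), with signals of 46 to 138 in the eSLC lines, 13.3 in SC P5 and 26.1 in SC P10. The SC P5 value was the floor of the scale, under which all signals were set to 13.3. WEE1, the kinase that opposes the CDC25 enzymes, rose by 1.34 ± 0.30 (SE, adjusted p = 0.015).

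The 3 mitotic kinases grouped here, AURKA, NEK2 and PLK1, rose. AURKB, a mitotic kinase given below with its complex, stayed under 2-fold and was not called. AURKA, the Aurora kinase of centrosomes and spindle poles (NM_001038028), had signals of 5476 in I2, 4842 in I9, 3844 in N2, 5979 in N7, 5349 in P1, 5668 in P4, 1039.5 in SC P5 and 1464 in SC P10. The 6 lines exceeded both SC arrays by a wide margin, and the difference was 2.06 ± 0.24 (SE, adjusted p = 0.0011), or 4.17-fold. NEK2, a kinase of centrosome separation, had signals of 136 to 194 in the eSLC lines, 54 in SC P5 and 64.7 in SC P10, and rose by 1.42 ± 0.17 (SE, adjusted p = 0.0014). PLK1, the Polo-like kinase of mitotic entry and spindle assembly, rose by 1.04 ± 0.28 (SE, adjusted p = 0.026), which is just over 2-fold. Its signal was 15899 to 25819.5 in the eSLC lines, 7564 in SC P5 and 12854 in SC P10, and the difference was 0.66 without SC P5 (adjusted p = 0.18). With scaling to the array median PLK1 differed by 1.00, just under 2-fold, and by 0.84 with quantile normalization.

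Of the chromosomal passenger complex, the Aurora B assembly that corrects faulty attachments, 1 of 3 measured subunits passed both limits. CDCA8, the borealin subunit (NM_001083652), gave 626 in I2, 684 in I9, 610.2 in N2, 1008 in N7, 585 in P1, 791 in P4, 198 in SC P5 and 357 in SC P10. N7 was highest and SC P5 lowest, no line overlapped the SCs, and CDCA8 rose by 1.40 ± 0.31 (SE, adjusted p = 0.014). Without SC P5 its difference was 0.98 (adjusted p = 0.12). AURKB, the kinase subunit, differed by 0.78 ± 0.22 (SE, adjusted p = 0.031), and BIRC5, the survivin subunit, by 0.85 ± 0.21 (SE, adjusted p = 0.018). Both lay above both SC arrays in all 6 lines, and both stayed under 2-fold. With the mean of its probes AURKB passed 2-fold and was called (adjusted p = 0.0048).

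In the spindle checkpoint 2 of 5 genes rose. MAD2L1, the protein that binds and holds CDC20 (NM_001191513), had the largest difference of all members. Its signals were 16508 in I2, 22282 in I9, 19002 in N2, 30839 in N7, 19112 in P1, 18334 in P4, 2252 in SC P5 and 3309 in SC P10. The lowest line stood far above the higher SC array, and the difference was 2.91 ± 0.27 (SE, adjusted p = 0.00048), or 7.53-fold. Its 2 probes gave 2.91 and 2.95. BUB1, a checkpoint kinase at kinetochores, rose by 1.11 ± 0.21 (SE, adjusted p = 0.0071), with a signal of 1086 to 1307 in the eSLC lines, 443 in SC P5 and 684 in SC P10, and by 0.79 without SC P5 (adjusted p = 0.028), which is under 2-fold. TTK, the kinase at the head of the checkpoint, differed by 0.98 ± 0.34 (SE, adjusted p = 0.058), BUB1B, the BUBR1 protein, by 0.61 ± 0.22 (SE, adjusted p = 0.067), and BUB3, the partner of both BUB proteins, by 0.46 ± 0.21 (SE, adjusted p = 0.12). None of these 3 passed the adjusted p, although no line of any of the 3 fell below an SC array. MAD1L1, the anchor of MAD2L1 at kinetochores and no member, rose by 1.60 ± 0.43 (SE, adjusted p = 0.026), with signals of 24.5 to 83.6 in the eSLC lines, 13.3 in SC P5 and 15.1 in SC P10, close to the floor of the scale.

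Of the 7 measured centromere and kinetochore members, 2 rose. ZWINT, which links the outer kinetochore to the checkpoint (NM_001040529), gave 1004 in I2, 967 in I9, 919.8 in N2, 1331 in N7, 1389 in P1, 1188 in P4, 181 in SC P5 and 347 in SC P10. Every line was above both SC arrays, P1 the highest, and ZWINT rose by 2.16 ± 0.29 (SE, adjusted p = 0.0021), or 4.46-fold. SGO1, shugoshin, the guardian of centromeric cohesin, rose by 1.62 ± 0.35 (SE, adjusted p = 0.012), with a signal of 485 to 1056 in the eSLC lines, 156 in SC P5 and 300.4 in SC P10. Its 4 probes gave differences from 0.84 to 1.68. Without SC P5 the difference of SGO1 was 1.15, and the call was lost there and with the SCs as 1 sample. The other 5, CENPF, CENPH, CENPN, NDC80 and NUF2, differed by 0.61, 0.43, 0.35, 0.36 and 0.40, with adjusted p values from 0.097 to 0.46, and in all 5 a line overlapped SC P10. CENPN, which reads the centromeric nucleosome (NM_001038099), gave 3096 in I2, 3979 in I9, 3050.5 in N2, 6429 in N7, 2159 in P1, 3254 in P4, 2158 in SC P5 and 3388 in SC P10. N7 stood above the rest and P1 was level with SC P5, so that its 6 lines spread over 2.98-fold. NDC80 and NUF2 form the outer arm of the Ndc80 complex, the microtubule anchor of the kinetochore. The signal of NDC80 was 673 to 1000.1 in the eSLC lines, 517 in SC P5 and 833 in SC P10, and that of NUF2 was 2831 to 3706 in the eSLC lines, 1868 in SC P5 and 3166 in SC P10. Of the inner arm, which the member list does not hold, SPC25 rose by 2.98 ± 0.37 (SE, adjusted p = 0.0015), whereas SPC24 differed by -0.90 ± 0.17 (SE, adjusted p = 0.0071), under 2-fold. The 4 subunits of this complex thus ran from lower to higher in eSLCs. SPC24, CDC25A, WEE1 and MAD1L1 were named after their values were seen.

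Of the 5 kinesins, KIF11 rose. KIF11, the motor that pushes spindle poles apart (NM_001192185), gave 833 in I2, 566 in I9, 418 in N2, 963 in N7, 468 in P1, 779 in P4, 241 in SC P5 and 287 in SC P10. All lines lay above the SCs, N2 the lowest and N7 the highest, and the difference was 1.28 ± 0.39 (SE, adjusted p = 0.038). The brightest of its 4 probes gave this value, the lowest gave 0.35, and with the mean of its probes the difference was 0.87, under 2-fold. The adjusted p of KIF11 was 0.22 without SC P5 and 0.16 without SC P10. KIF20A, a motor of cytokinesis (NM_001046288), gave 2259.7 in I2, 2495 in I9, 2484 in N2, 3546 in N7, 2169 in P1, 3254 in P4, 2262 in SC P5 and 3309 in SC P10. eSLCs and SCs overlapped across the whole range, and the difference of -0.04 ± 0.26 (SE, adjusted p = 0.90) took the opposite sign when N2, P1 or SC P10 was left out. KIF23, the motor of the midzone, differed by 0.81 ± 0.26 (SE, adjusted p = 0.046), KIF2C, a microtubule depolymerase, by 0.85 ± 0.22 (SE, adjusted p = 0.023), and KIF4A, a chromosome-bound motor, by 0.89 ± 0.29 (SE, adjusted p = 0.046). These 3 passed the adjusted p and were under 2-fold. Without SC P5 they differed by 0.54, 0.52 and 0.50 and did not pass. Without SC P10 they differed by 1.07, 1.18 and 1.29, and KIF2C and KIF4A were called.

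With all arrays no spindle microtubule binder reached 2-fold. NUSAP1, a protein of spindle microtubules near chromatin (NM_001046571), had signals of 4554 in I2, 5923 in I9, 6067 in N2, 5131 in N7, 5256 in P1, 5199 in P4, 2166 in SC P5 and 4088 in SC P10. The lines were above both SC arrays, though I2 was close to SC P10, and the difference was 0.84 ± 0.28 (SE, adjusted p = 0.048). NUSAP1 differed by 0.38 without SC P5 (adjusted p = 0.24) and by 1.30 without SC P10 (adjusted p = 0.020), where it was called. TPX2, the activator of Aurora A on the spindle, differed by 0.62 ± 0.22 (SE, adjusted p = 0.059), and PRC1, which bundles midzone microtubules, by 0.47 ± 0.31 (SE, adjusted p = 0.25). The 4 probes of TPX2 gave differences from 0.13 to 0.62. The PRC1 signal of P1 was 26934, and that of the next line, N7, was 16799.

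Of the co-factors and substrates of the APC/C and the genes of sister separation, 2 of 5 rose. ESPL1, separase, the protease that cuts cohesin (NM_001045949), gave 5794 in I2, 8581 in I9, 7133 in N2, 5883 in N7, 5229 in P1, 6099 in P4, 1505 in SC P5 and 3407 in SC P10. I9 was highest, all lines exceeded the SCs, and ESPL1 rose by 1.49 ± 0.35 (SE, adjusted p = 0.016). It was also the member in which the SC arrays were furthest apart, 2.26-fold, and without SC P5 its difference was 0.90 (adjusted p = 0.089). UBE2C, the ubiquitin-conjugating enzyme of the APC/C, rose by 1.05 ± 0.28 (SE, adjusted p = 0.025), just over 2-fold, and by 0.63 without SC P5 (adjusted p = 0.15) or 0.96 with quantile normalization. CDC20, the activator that MAD2L1 restrains, differed by 0.60 ± 0.29 (SE, adjusted p = 0.14), PTTG1, securin, the inhibitor of separase, by 0.36 ± 0.26 (SE, adjusted p = 0.29), and CDCA3, which takes part in the destruction of WEE1, by 0.91 ± 0.34 (SE, adjusted p = 0.069). Separase thus rose, whereas the difference of its inhibitor securin did not pass the test. Whether the pair differed from each other was not tested.

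**Figure D2:**
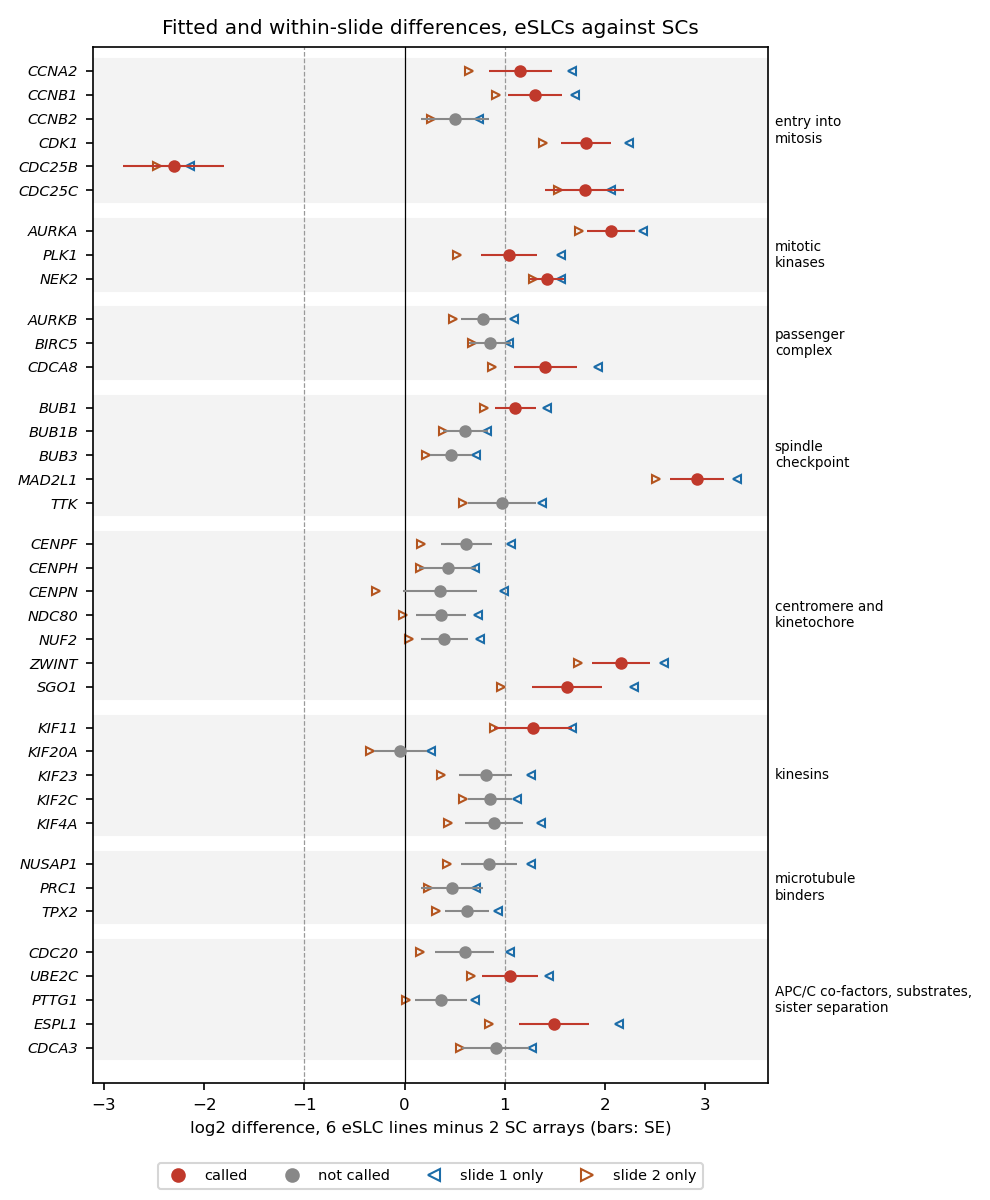
Difference of each gene, eSLCs minus SCs, on the log2 scale, with the limma estimate as a circle (red where called) and its SE as a bar. Open triangles give the difference within slide 1 and within slide 2, and the dashed lines mark 2-fold. The slide 1 value was above the slide 2 value for all 37 genes, against 44.5% of all genes tested. The medians over the 37 genes were 1.26 and 0.52.

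Both SC arrays were below the eSLC lines for most members, but not by the same distance. SC P5 lay below all 6 lines in 35 of the 37 members, against 39% of all genes tested, and SC P10 in 25, against 38.5%. SC P10 was higher than SC P5 in 37 of 37 members, against 45.8% of all genes tested. The difference between these arrays had a median of 0.72 on the log2 scale over the members and of 0 over all genes, and ran from 0.06 in CDC25C to 1.18 in ESPL1. Only ESPL1 passed 2-fold, against 1.27% of all genes. It has no replicate check, as each passage was 1 array. Passage and slide cannot be told apart here, because SC P5 lay on slide 1 with I2, I9 and N7, and SC P10 on slide 2 with N2, P1 and P4. In the NT-eSLCs, which also lay on both slides, N7 on slide 1 was above N2 on slide 2 in 30 of 37 members. N2 and N7 also differ in line and passage, so this pair does not separate the slide either. All 18 S phase genes and all 10 housekeeping genes were also higher in SC P10 than in SC P5, with medians of 0.93 and 0.30. Within slide 1 the eSLC lines exceeded SC P5 in 36 members, 25 of them by at least 2-fold. Within slide 2 they exceeded SC P10 in 33 members, 6 of them by at least 2-fold. The shares of all genes that passed these limits within a slide are not given here. The median difference over the members was 1.26 within slide 1 and 0.52 within slide 2, beside 0.19 and 0.25 over all genes tested. With the slide as a block in the fit, 15 members rose and CDC25B fell, as without it. The share of all genes called in that fit is not given here. Both slides held equal numbers of eSLC lines and of SC arrays. The block therefore could not change these differences, only their SEs and p values.

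**Figure D3:**
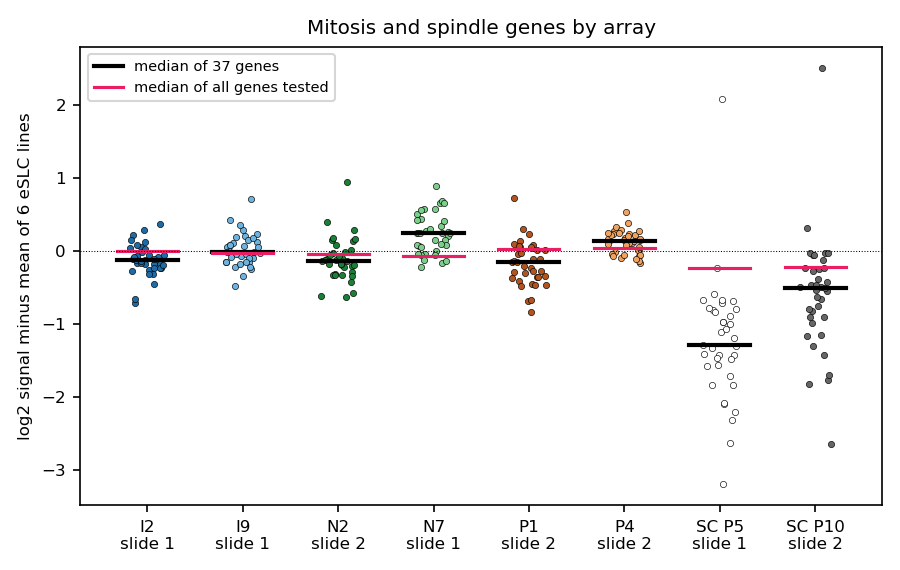
Log2 signal of the 37 genes on each array, less the mean of the 6 eSLC lines. Black bars give the median over the 37 genes and pink bars the median over all genes tested. The members had medians of 0.25 in N7, -1.29 in SC P5 and -0.50 in SC P10, while the pink bars of the SC arrays were at -0.22 in both.

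Among the eSLC lines most members stayed within 2-fold. The range over the 6 lines had a median of 1.64-fold over the members and of 1.91-fold over all genes tested, and was under 2-fold in 28 of 37 members, against 54.4% of all genes. BUB1 had the narrowest range, 1.20-fold, and CDC25B, CENPN and CDC25C the widest. N7 was the highest line in 19 of 37 members, and the highest in 20.3% of all genes. N2 and P1 were the lowest line in 14 members each, against 18.2% and 17.4% of all genes. N7 exceeded N2 in 30 members, against 47.2% of all genes, P4 exceeded P1 in 30, against 48.6%, and I9 exceeded I2 in 25, against 45.3%. The line of lower passage was thus the higher of the pair in NT- and IVP-eSLCs and the lower in PA-eSLCs. N7 also had the lowest summed signal of the 11 trophectoderm markers, 529014 against 835324 to 1479972 in the other 5 lines, and the highest of the 7 early lineage markers, 6913 against 2520 to 3426. Of the early lineage markers, N7 was the highest line in 4. POU5F1 was at 898 in N7 against 30.7 to 101, and GATA4 at 2918 against 23.1 to 180. SOX2 was at 99.4 in N7 and 96.4 in P1, and DPPA3 was at 15.8 in N7, near the floor of 13.3. LIN28A and SOX17 were highest in N2, and NANOG was at 32.4 in N7 and 35.4 in P1. SOX17 was the brightest of these markers in the other 5 lines, at 1908 to 2946. It was at 3442 in SC P5 and 2759 in SC P10, so the sum is weighted by a gene that the SCs share. The summed fibroblast markers of N7, 7165, lay within the range of the other lines. These genes were named after their values were seen. The part of this line's cell make-up in its mitotic signals was not tested.

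In each origin most members were higher than in SCs, 35 of 37 in IVP-eSLCs, 36 in NT-eSLCs and 34 in PA-eSLCs, against 58.3%, 57.3% and 60% of all genes. The 3 comparisons share the SC arrays. In IVP-eSLCs 11 members rose, against 17.6% of all genes, and 1 fell, against 14.6%. In NT-eSLCs 13 rose, against 15.8%, and 0 fell, against 13.9%, where CDC25B differed by -1.91 with an adjusted p of 0.058. In PA-eSLCs 10 rose, against 20.3%, and 1 fell, against 14.9%. The falling gene was CDC25B in both. With the slide as a block 10 members rose and 0 fell in IVP-eSLCs, 13 and 0 in NT-eSLCs, and 7 and 1 in PA-eSLCs. The share of all genes called in each origin with the block is not given here, so these counts have no background beside them. The block took the call of CDC25B in IVP-eSLCs, where its difference was -1.91 (adjusted p = 0.085), and left that in PA-eSLCs at -3.09 (adjusted p = 0.024). The median difference over the members was 0.80 in IVP-eSLCs, 1.03 in NT-eSLCs and 0.82 in PA-eSLCs. Of the rising genes, 10 were called in all 3 origins, against 13.4% of all genes: CCNB1, CDK1, CDC25C, AURKA, NEK2, CDCA8, BUB1, MAD2L1, ZWINT and SGO1. With the slide as a block the count was 6, against 11.4% of all genes, and the genes were CDK1, AURKA, NEK2, BUB1, MAD2L1 and ZWINT. Without the block ESPL1 was called in IVP- and NT-eSLCs, and PLK1 and BIRC5 in NT-eSLCs. ESPL1 in PA-eSLCs differed by 1.32 with an adjusted p of 0.051, so that these call patterns do not show a difference between origins. MAD2L1 rose by 2.81 ± 0.33 (SE) in IVP-eSLCs, by 3.15 in NT-eSLCs and by 2.78 in PA-eSLCs. AURKA rose by 2.06, 1.96 and 2.16 in the same order, with an SE of 0.29.

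The IVP-eSLC arrays were both hybridized on slide 1 and the PA-eSLC arrays both on slide 2, so the slide bears on these counts. Within slide 1, IVP-eSLCs exceeded SC P5 by a median of 1.19 over the members. Within slide 2, PA-eSLCs exceeded SC P10 by a median of 0.54. N7 exceeded SC P5 by 1.39 and N2 exceeded SC P10 by 0.52. Without SC P5, 5 members rose and 0 fell in each of the 3 comparisons. Without N7, the NT-eSLC count was 5. Without I2 the IVP-eSLC count was 4 and without I9 it was 6, and without P1 the PA-eSLC count was 5 and without P4 it was 6. IVP-eSLCs also had 6 called members when P1 or P4 was left out, and 11 or 13 when N2 or N7 was. The fits with an array left out hold fewer samples, and the share of all genes called in them is not given here. The cause was not tested.

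Between embryo origins no member was called. For NT- against IVP-eSLCs limma called 0 of 37 members and 0% of all genes, and 0 members had an unadjusted p under 0.05, against 2.79% of all genes. Member differences ran from -0.29 in NEK2 to 0.48 in CENPH, with SEs from 0.21 to 0.61. For PA- against IVP-eSLCs the count was also 0 of 37 and 0%, and 0 members had an unadjusted p under 0.05, against 5.18% of all genes. These differences ran from -0.48 in KIF23 to 0.55 in PRC1. The methods' t-test before adjustment gave 0 members in both comparisons, against 0.155% and 0.767% of all genes. With the slide as a block, 1 member, CENPF, had an unadjusted p under 0.05 for PA- against IVP-eSLCs. The share of all genes with such a p in that fit is not given here. With 2 arrays per origin and these SEs, a difference under 2-fold was often not detectable, so that the origins are not shown to be alike.

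Other genes of mitosis were taken from 5 further lists. Of their 117 genes 93 were measured, of which 25 rose (26.9%) and 3 fell (3.23%) in eSLCs, beside the 19.7% and 15.7% of all genes tested, with a median difference of 0.68. MKI67 and FOXM1, markers and drivers of the G2 and M programme, had no named probe. Of the 15 measured APC/C subunits and regulators 1 rose, and their median was 0.08. It was FBXO5, the EMI1 inhibitor of the APC/C, at 1.27 ± 0.37 (SE, adjusted p = 0.034). Of 13 cohesin and condensin genes 3 rose, the most NCAPH, a condensin subunit, at 1.39 ± 0.34 (SE, adjusted p = 0.019), and ESCO2, the cohesin acetyltransferase, at 1.31 ± 0.31 (SE, adjusted p = 0.016). Of 29 other centromere and kinetochore genes 8 rose and 0 fell, with CENPI, of the inner kinetochore, at 3.25 ± 0.48 (SE, adjusted p = 0.0030) and SPC25 ahead. The CENPI signal was 1133 to 3911 in the eSLC lines, 166 in SC P5 and 309 in SC P10, so that its largest value in the SCs was well under its lowest line.

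Of 20 other spindle, centrosome and cytokinesis genes 6 rose, led by CDCA2, which brings a phosphatase to chromosomes, at 1.48 ± 0.31 (SE, adjusted p = 0.011), and TACC3, a protein of spindle fibres, at 1.39 ± 0.18 (SE, adjusted p = 0.0017). TACC3 was higher in SC P5 than in SC P10, unlike the members. Of 16 genes of G2/M control and transcription 7 rose and 3 fell. CDCA7L fell, with a difference of -3.54 ± 0.38 (SE, adjusted p = 0.00085), from 250.4 and 332 in the SCs to values from the floor of 13.3 to 47.0 in the lines, and CDCA7, its paralogue, rose by 2.53 ± 0.70 (SE, adjusted p = 0.028). The other falling genes were PBK, a mitotic kinase, at -1.12 ± 0.22 (SE, adjusted p = 0.0080), and LIN52, a subunit of the MuvB core that regulates late cell cycle genes, at -1.37 ± 0.20 (SE, adjusted p = 0.0026).

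S phase genes moved in the same direction as the members. Of 18 measured genes of S phase and replication 11 rose, 0 fell and all 18 had a higher mean in eSLCs, with a median difference of 1.41. ORC1, the largest subunit of the origin recognition complex, rose by 3.37 ± 0.40 (SE, adjusted p = 0.0013), and CDC6, which loads the replicative helicase, by 2.60 ± 0.56 (SE, adjusted p = 0.012). CDC6 was at the floor of the scale in SC P5 and at 59.0 in SC P10, so its difference depends on that floor. Of 10 housekeeping genes 0 were called, with a median difference of 0.27.

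**Figure D4:**
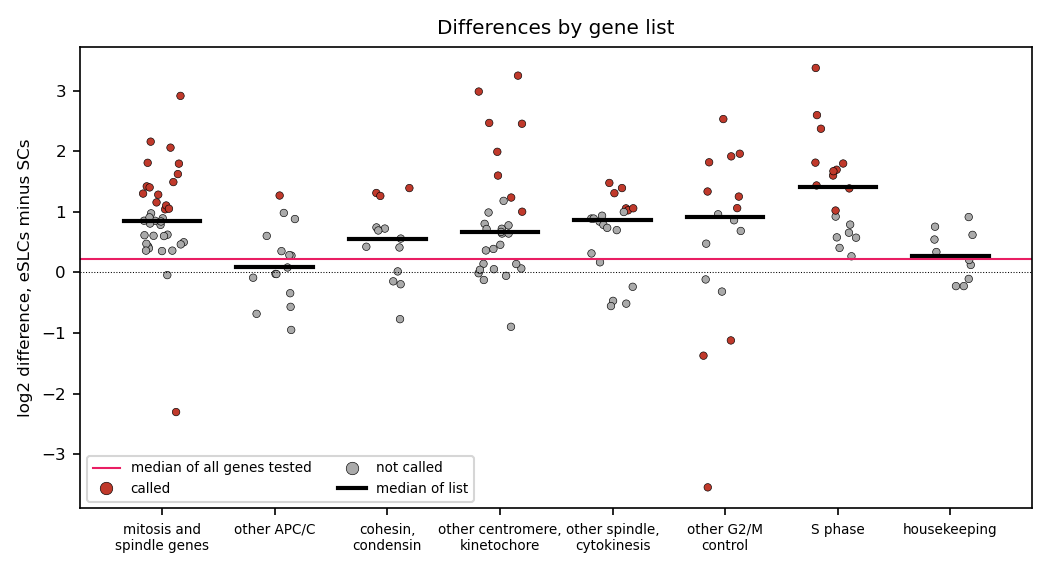
Log2 difference, eSLCs minus SCs, of every tested gene of the member list, 5 other mitotic lists, the S phase list and the housekeeping list, red where called. Black bars are list medians, from 0.08 for the other APC/C genes to 1.41 for S phase, and the pink line is the median of all genes tested, 0.23.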

How the data were processed

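Expression of 40 genes of mitosis and the spindle was read from 8 one-colour Agilent bovine arrays. The authors scanned the arrays and deposited the output of Feature Extraction 11.5.1.1, a version taken from the submitters' processing notes and the file headers, as linear signal intensity per spot, and a table of intensity values after their own GeneSpring normalization, whose scaling is not given in the sources used here. The methods add that mean normalized signal was divided by mean normalized control to give ratios. The processed signal column in the deposited files followed the background-subtracted signal in I2 and N2 (Spearman 0.97) and not in the other 6 arrays (0.16 to 0.22), so the background-subtracted signal was used and the processed column kept as an alternative.

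Control spots and spots flagged as not uniform (0 to 5 per array) were left out, which left 43653 probes. No spot was saturated, and 71.2% to 76.7% of spots were well above background. Signals were divided by the 75th percentile of their array, set to 1000, raised to a common floor of 13.3 and taken to log2. Accessions without version matched 26743 probes to 12603 genes of the RefSeq table of ARS-UCD2.0. The array design names another build, so no positions are given. The brightest probe stood for a gene. Of the 37 measured members, 27 had more than 1 probe well above background on all arrays, and 0 of these had probes of both signs.

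The 10958 genes that all arrays of some condition showed well above background were compared with limma 3.58.1 in R 4.3.3, by lmFit and eBayes on all 8 arrays with 1 mean for each condition. A call needed an adjusted p (Benjamini-Hochberg over all genes tested) under 0.05 and at least 2-fold. The step was tested on simulated data. Figures were drawn with matplotlib 3.10.9 in Python 3.11.15. The members and gene lists were chosen with earlier results of these data known.

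Every member was named. Values on every array were given for the 3 largest rises and 3 largest falls, the member of each role with the largest difference, the 3 members with the widest range over eSLC lines, members called against the direction of most, CDK1 and CCNB1. Of each other list, the 2 called genes with the largest difference were named. Alternatives were the scaling, background correction, filter, probe choice, signal column, samples in the fit, SCs as 1 sample, the slide as a block, the methods' t-test and the study's 2-fold criterion, and leaving out each array. The files hold no mean signal column, so the normexp correction used the median signal. A planned search of promoters was not made, as no promoter sequence was used here.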

Additional observations from a re-analysis of the deposited data

Results flagged for a closer look

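In 2 of 37 members 1 eSLC line stood far from the other 5, by the gap to its nearest neighbour as a share of the range of the 6 lines on the log2 scale, with a critical value at which chance marks about 1 in 20 groups. That is 5.41% of members, close to that rate, and the same gap stood in 8.17% of the 10714 genes tested whose lines differed at all. CENPH was low in I2, at 255 against 418 to 486 in the other lines (share 0.767). PRC1 was high in P1, at 26934 against 12733 to 16799 (share 0.63).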

How the results depend on the processing

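For eSLCs against SCs, 16 members were called. The count was 14 to 16 under both other scalings, normexp background correction, both filters, averaged probes, the eSLC lines as 1 group, the slide as a block, the methods' t-test before and after adjustment and the study's 2-fold criterion without a test. It was 8 with the SC arrays as 1 sample, 9 with the series matrix values and 0 with the processed signal column, and 5 to 17 when 1 array was left out. The median difference, 0.85, was 1.32 with the processed signal column, 1.26 within slide 1, 0.52 within slide 2 and 0.50 to 1.29 with 1 array left out. The slide as a block could not change the differences of this comparison, as both slides held equal numbers of eSLC lines and of SC arrays.

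The IVP-eSLC count of 12 became 6 with no filter, 7 with the SC arrays as 1 sample, 0 with the processed signal column, 4 with the series matrix values, 7 with only the conditions compared, 0 by the methods' t-test after adjustment and 6 before it, and 4 to 13 with 1 array left out. The NT-eSLC count of 13 became 8, 0, 3, 3, 0 and 3 under the last 6 of these settings in the same order, 20 by the study's 2-fold criterion and 5 to 14 with 1 array left out. The PA-eSLC count of 11 became 7 with the SC arrays as 1 sample, 0 with the processed signal column, 5 with the series matrix values, 0 by the methods' t-test after adjustment and 7 before it, and 5 to 14 with 1 array left out. Between origins the count was 0 throughout. Beyond the smaller number of samples in some of these fits, the cause was not tested.

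Over the 37 members, the difference of eSLCs against SCs reversed for CDC25B (1.39), NEK2 (-1.83) and KIF20A (0.13) with the processed signal column, and for KIF20A also without N2 (0.04), P1 (0.05) or SC P10 (0.23), with a range of -0.32 to 0.23 over the arrays left out. MAD2L1, ZWINT, AURKA, CDK1 and NEK2 were called under 19 of 20 alternatives, all but the processed signal column. The median of all genes was 0.23, and 0.12 with quantile normalization, 0.11 with no filter, 0.06 with the series matrix values and 0.41 with the processed column. No paired analysis was possible because the labels name lines and passages and give no replicate numbers that groups share. All members were well above background, but that flag does not show that low signal limits none of them. NEK2 had the lowest mean signal of the members. Its difference was smaller with normexp background correction, though still over 2-fold and called. The number of arrays limits all members.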
